A study of Mus musculus with 6 samples.

Results

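The genes described here are the 4 mouse Notch receptors (Notch1, Notch2, Notch3 and Notch4) and their 5 classical ligands (Jag1, Jag2, Dll1, Dll3 and Dll4). A probe set, a group of short oligonucleotides on the array that together report a single transcript, was taken as a member when the platform annotation gave it exactly 1 gene symbol and that symbol was among these 9. This gave 18 probe sets of the 45037 on the array that were not controls, and 9 of the 18193 genes with such a probe set. RNA came from C57BL/6J mouse bone marrow cells of the KSL phenotype (c-Kit+Sca-1+Lin-), a surface phenotype of hematopoietic stem cells and early progenitors. Three-prime expression arrays were run on 3 biological replicates grown with mD1R and 3 grown with PBS. Both groups shared everything else that the labels state: 7 days on human umbilical vein endothelial cells (HUVEC) in medium without serum but with m5GF, a mix of mouse cytokines, then a second sort for KSL cells. The labels do not spell out mD1R, which from background knowledge is an engineered soluble protein built on part of mouse Delta-like 1 and made to bind endothelial cells.

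Notch receptors are single-pass membrane proteins that are switched on by ligands on a neighbouring cell. Ligand pull exposes a site that is cut by an ADAM protease and then by gamma-secretase, and the freed intracellular part enters the nucleus and acts with the DNA-binding protein Rbpj. Jagged and Delta-like ligands share an N-terminal DSL domain that contacts the receptor. In blood formation the pathway is best known for directing progenitors to the T cell lineage in the thymus, and Notch1 and Notch2 are the receptors most studied in blood stem and progenitor cells.

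With mD1R, Jag1 was the member whose RNA rose. Its brightest probe set was 4.38-fold higher and a second was 3.09-fold higher, while the remaining, dimmer probe set had a log2 change of 0.39 ± 0.41 (SE) and did not pass. The other 8 probe sets that could be tested, of Notch1, Notch2, Notch3, Notch4, Jag2 and Dll1, did not pass, with log2 changes between -0.47 and 0.40. The remaining 7 probe sets, among them every probe set of Dll3 and Dll4, were too dim to be tested in the same way.

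The promoters of the Jagged pair are shown because the only member that passed stands beside its closest relative, which did not. Each is the 250 bases before the annotated start in RefSeq (GRCm38.p6), read 5′ to 3′ on the gene's strand, with the Jag1 window at chr2:137116521-137116770 (minus strand) and the Jag2 window at chr12:112929496-112929745 (minus strand). Capitals mark matches on either strand to any of 5 motifs: TGGGAA, the core that Rbpj binds; AGATAA, known for blood factors such as Gata2; CANNTG, the E-box; GGGCGG, the GC box of Sp factors; and TGANTCA of AP-1. Matches may overlap.
Jag1: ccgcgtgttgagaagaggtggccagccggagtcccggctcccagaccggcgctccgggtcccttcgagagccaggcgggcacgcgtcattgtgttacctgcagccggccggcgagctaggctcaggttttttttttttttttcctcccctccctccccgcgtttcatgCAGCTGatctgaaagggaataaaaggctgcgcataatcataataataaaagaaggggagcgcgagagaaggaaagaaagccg
Jag2: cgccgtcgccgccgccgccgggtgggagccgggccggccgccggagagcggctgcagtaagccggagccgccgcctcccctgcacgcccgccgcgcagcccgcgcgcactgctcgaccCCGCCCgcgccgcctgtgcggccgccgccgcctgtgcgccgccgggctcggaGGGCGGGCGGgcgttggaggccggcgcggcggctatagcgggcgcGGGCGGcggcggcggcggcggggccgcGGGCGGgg
The Jag1 window held a single E-box and no GC box, and 57.2% of its bases were G or C. The Jag2 window held 5 GC box matches, 2 of them overlapping, and 87.2% of its bases were G or C, against a median of 52.4% over all 32841 windows of the RefSeq table. All 9 members had a window, and Dll1 had 2, which makes 10. None of the 10 held TGGGAA, which 21.6% of all windows held, or the AGATAA motif, which 10% held. An E-box was found in 5 of the 10 windows and in 66.2% of all windows, a GC box in 6 of the 10 and in 32.7%, and the AP-1 motif in 1 of the 10, in Dll1, and in 6.8%. These counts describe letters in a short window and say nothing of binding.

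The values are log2 signals made with MAS5, an Affymetrix method that subtracts mismatch signals and so makes dim values noisy. All 6 arrays had a trimmed mean of 500 on the linear scale and medians of 6.07 to 6.42 on the log2 scale. Probe sets with a mean log2 signal under 5.27 (the 40th percentile) were left out of the test, which kept 27022 probe sets in all and 11 of the 18 here, from 7 of the 9 genes. The groups were compared with limma across all kept probe sets, and a change was called at an adjusted p (Benjamini-Hochberg) of 0.05. Nothing in the labels says whether the biological replicates came from separate mice, so p-values measure the spread between these cultures. Precision is limited by having 3 arrays in each group (median SE of the log2 change 0.31). The BioB spike-in control split the arrays into 2 sets that cross the groups: mD1R replicates 1 and 2 with PBS replicate 1 in set 1, and mD1R replicate 3 with PBS replicates 2 and 3 in set 2. A change within a set rests on 1 array of a group.

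Of the 11 tested probe sets 2 passed as higher with mD1R and 0 as lower in limma, against 6.13% of all tested probe sets called higher and 6.50% called lower (12.6% in either direction). At an unadjusted limma p of 0.05 the counts were also 2 and 0, against 8048 of all 27022 tested probe sets in either direction. The groups did not overlap in 2 of the 11, against 36.0% of all tested probe sets, and in 3 of all 18 members, against 26.7% of all 45037. The median log2 change of the 11 was 0.16, beside 0.00 over all tested probe sets. With 11 probe sets these shares are descriptions of the family, not a test of it.

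**Figure D1:**
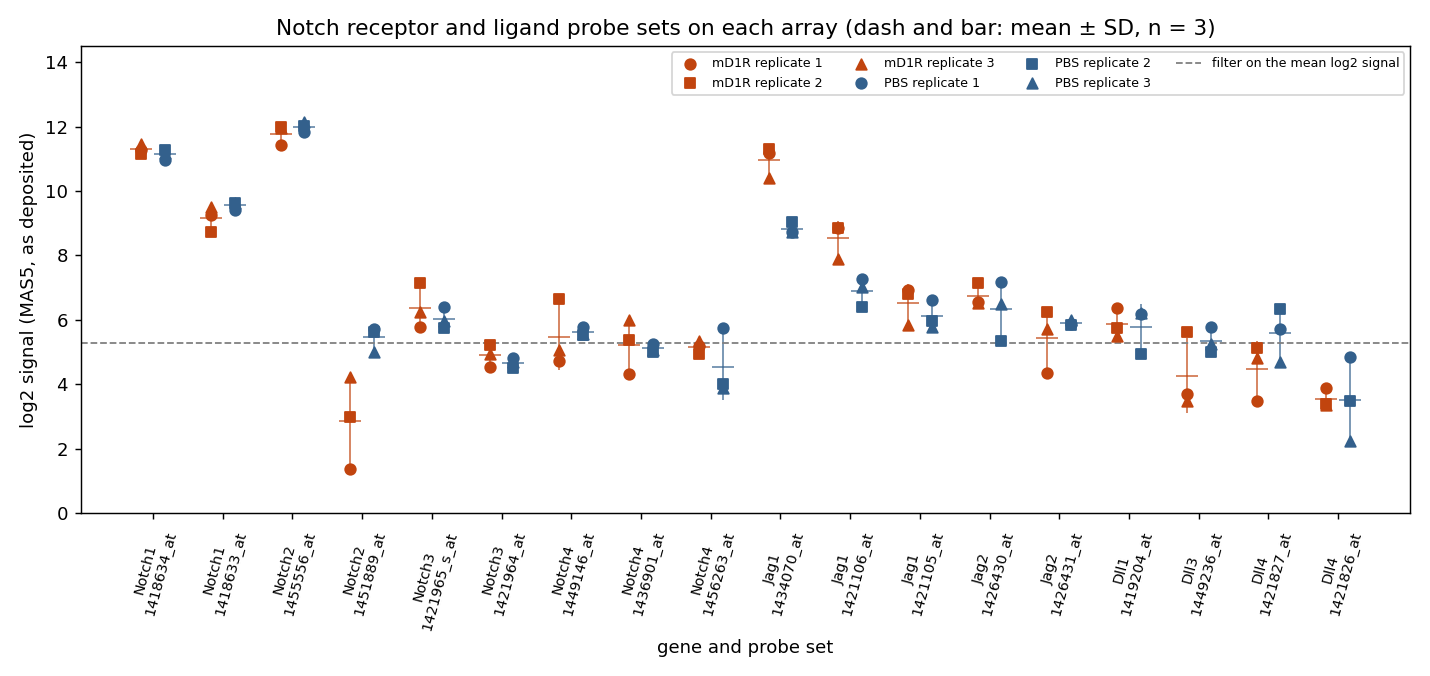
Log2 signal (vertical axis) of each of the 18 probe sets (horizontal axis) on every array, mD1R in orange and PBS in blue, with symbols for replicate numbers and a dash and bar for the mean ± SD (n = 3). The upper Jag1 probe set sits between 10.42 and 11.29 with mD1R and between 8.73 and 9.03 with PBS, while the brightest Notch1 and Notch2 probe sets overlap between groups and most others lie near the dashed filter line at 5.27.

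Jag1 encodes a membrane ligand that binds Notch receptors and is made by stromal, endothelial and some blood cells. Its brightest probe set, 1434070_at, had log2 signals of 11.19, 11.29 and 10.42 in mD1R replicates 1, 2 and 3, against 8.73, 9.03 and 8.74 in PBS replicates 1, 2 and 3. The groups did not overlap, and the lowest mD1R array, replicate 3, was still above the highest PBS array. The means were 10.97 ± 0.48 with mD1R and 8.83 ± 0.17 with PBS (SD, n = 3 each), and Jag1 rose by 2.13 ± 0.26 (log2, SE; 95% interval 1.53 to 2.74; limma adjusted p = 0.0099). The rise was 2.51 within spike-in set 1 and 1.53 within set 2. Without PBS replicate 3 the change was 2.08 and no longer passed (adjusted p = 0.0675). Over all genes tested, each by its brightest probe set, 229 of 12320 had a larger log2 change.

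The second Jag1 probe set, 1421106_at, read 8.84, 8.86 and 7.90 in mD1R replicates 1, 2 and 3 and 7.27, 6.41 and 7.04 in PBS replicates 1, 2 and 3. Here too every mD1R array was above every PBS array, and mD1R replicate 3 was the lowest of its group. The log2 change was 1.63 ± 0.36 (SE; 95% interval 0.80 to 2.45; limma adjusted p = 0.0269), with 1.58 within spike-in set 1 and 1.18 within set 2. This call was lost without mD1R replicate 1 (1.47, adjusted p = 0.0672), mD1R replicate 2 (1.47, 0.0962), PBS replicate 1 (1.81, 0.0529), PBS replicate 2 (1.38, 0.0957) or PBS replicate 3 (1.69, 0.0948).

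The dimmest Jag1 probe set, 1421105_at, read 6.91, 6.80 and 5.84 with mD1R and 6.62, 5.97 and 5.79 with PBS, in replicates 1, 2 and 3. These groups overlapped, and the change of 0.39 ± 0.41 did not pass (95% interval -0.56 to 1.34; adjusted p = 0.566), with 0.24 within spike-in set 1 and -0.034 within set 2. The 3 Jag1 probe sets therefore did not give a single size of change. Subtracting the signals of 2 probe sets within each array removes any scaling between arrays. The gap between 1434070_at and 1421105_at was 4.28 to 4.57 with mD1R and 2.11 to 3.06 with PBS, a difference in change of 1.74 (exact permutation p = 0.1, two-sided, the smallest that 3 against 3 arrays can give). The gap between 1434070_at and 1421106_at was 2.35 to 2.51 with mD1R and 1.46 to 2.62 with PBS and overlapped (difference in change 0.50, exact permutation p = 0.4). With the 3 probe sets averaged, Jag1 had a log2 change of 1.38 ± 0.30 (SE; adjusted p = 0.0252 in limma).

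**Figure D2:**
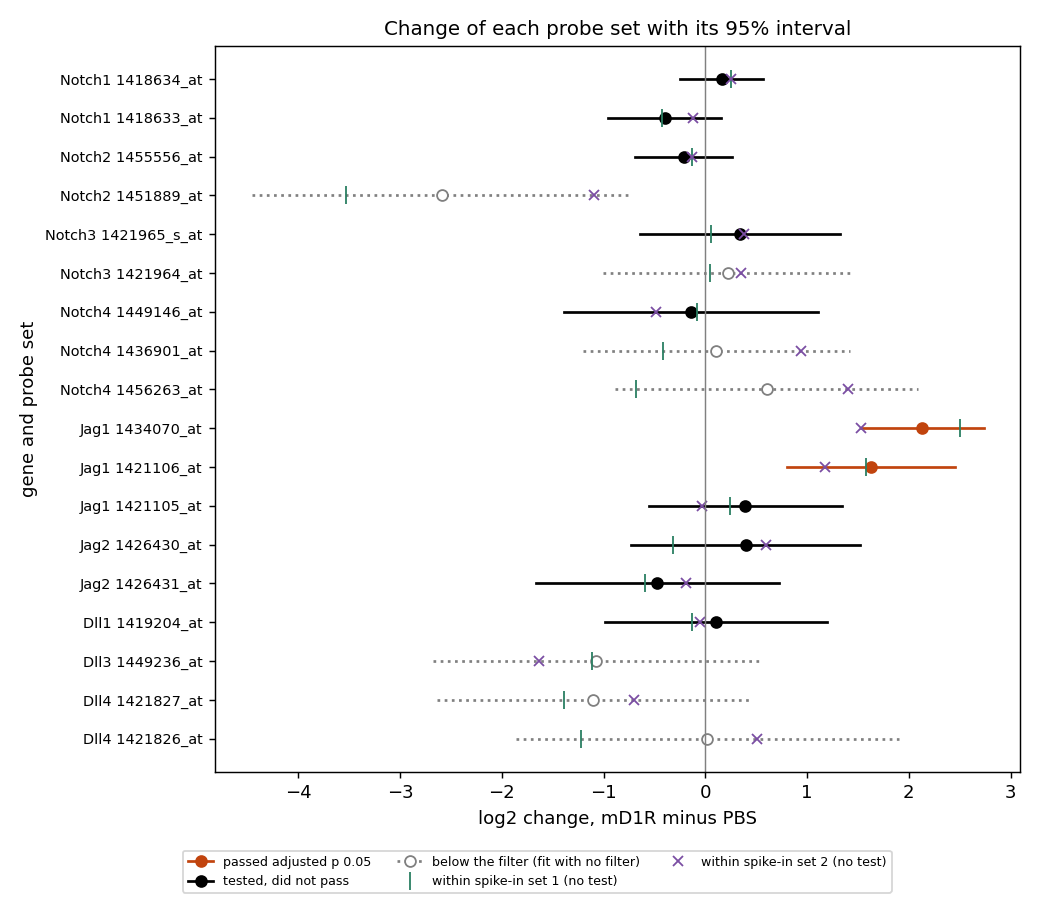
Log2 change, mD1R minus PBS (horizontal axis), of each probe set (vertical axis) with limma's 95% interval, orange where it passed adjusted p 0.05, black where it was tested and did not pass, and open with a dotted line where it lay below the filter. Green ticks and purple crosses are the changes within spike-in sets 1 and 2, and in the 2 upper Jag1 probe sets both lie well above 0.

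RNA of other cell types moved between the groups as well, and in sorted bulk samples a change in the mix of cells and a change in RNA per cell cannot be told apart. The second sort was for KSL cells, and how far it removed mature cells of these types was not tested. Of 13 tested mast cell and basophil markers 10 passed as higher, and their summed linear signal was 87442 to 133669 with mD1R and 42794 to 47236 with PBS. Of 13 monocyte and macrophage markers 5 passed as higher, with sums of 110034 to 169859 with mD1R and 63676 to 76434 with PBS. Among genes by their brightest probe set 8.49% passed as higher and 7.09% as lower.

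Within the mD1R arrays replicate 3, the lowest in every Jag1 probe set, had the lowest macrophage sum and the highest mast cell and basophil sum. The mast cell and basophil list was split, so its sum does not speak for each gene. Mcpt1, Mcpt2, Mcpt4, Tpsg1 and Cma1 were lowest in replicate 3. Cpa3, Fcer1a, Ms4a2, Mcpt8, Hdc, Gata2 and Srgn were highest there, and Tpsb2 lay between. The sum of mD1R replicate 3 over 10 neutrophil granule markers was 194598, beside 33995 and 53570 in mD1R replicates 1 and 2. It lay inside the range of 192550 to 223936 with PBS. Without mD1R replicate 3 the Jag1 changes were 2.41 (1434070_at) and 1.94 (1421106_at), and both passed. Of 10 megakaryocyte and platelet markers 3 passed as higher, with sums of 40351 to 64078 with mD1R and 9129 to 23781 with PBS. Endothelial markers, which matter here because HUVEC were the feeder layer, had 10 of 16 genes above the filter, of which 1, Pecam1, passed as higher. Their sums were 3678 to 6223 with mD1R and 1734 to 2510 with PBS. Vwf, the brightest of them with mD1R, did not pass (2.11 ± 0.68, limma adjusted p = 0.0796) and is also in the megakaryocyte and platelet list. Esam and Tek are also in the stem and progenitor list.

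The defining endothelial gene Cdh5 lay below the filter, with mean log2 signals of 3.85 with mD1R and 6.49 with PBS, without overlap. Emcn, also below the filter, was lower too (log2 change -1.41, without overlap). Plvap had a change of -1.45 ± 0.64 and did not pass (limma adjusted p = 0.174). The median log2 change of the 10 tested endothelial genes was 0.73. Fibroblast and stromal markers had 0 of 8 called higher and 1, Cxcl12, called lower, with sums of 1376 to 3725 with mD1R and 1605 to 1942 with PBS. No marker of these lists was listed at 0 on any array. Whether human RNA from the feeder cells reached these mouse probe sets was not tested, and neither was the part of any of these cell types in the Jag1 change.

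Of 3 tested genes listed with the gate, Kit, Cd34 and Ptprc, 1 passed as higher, Cd34 (1.98 ± 0.43, limma adjusted p = 0.0263), and 0 as lower. Kit, the c-Kit receptor, had log2 signals of 11.37, 11.13 and 9.58 in mD1R replicates 1, 2 and 3 and 9.97, 8.85 and 9.21 in PBS replicates 1, 2 and 3. Its lowest mD1R array was again replicate 3, the groups overlapped, and its change of 1.35 ± 0.49 did not pass (limma adjusted p = 0.109). Ly6a, which encodes Sca-1, was not used here. Of 8 tested stem and progenitor markers 2, Procr and Gata2, passed as higher and 1, Flt3, as lower. Their sums were 15989 to 19789 with mD1R and 5765 to 8388 with PBS. Gata2 is also in the mast cell and basophil list. Cd48, the brightest of the list with mD1R, did not pass (0.77 ± 0.37, limma adjusted p = 0.214), so the sums do not speak for stem cell genes alone.

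Among the receptors, Notch1 is required for T cell commitment in the thymus. Its brighter probe set, 1418634_at, read 11.28, 11.14 and 11.47 in mD1R replicates 1, 2 and 3 and 10.96, 11.26 and 11.18 in PBS replicates 1, 2 and 3. The dimmer, 1418633_at, read 9.25, 8.72 and 9.51 with mD1R and 9.41, 9.63 and 9.64 with PBS. Both overlapped between groups.

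The log2 changes of the Notch1 probe sets were 0.16 ± 0.18 (SE; 95% interval -0.25 to 0.57; adjusted p = 0.584) for the brighter and -0.40 ± 0.24 (95% interval -0.95 to 0.16; adjusted p = 0.312) for the dimmer, and neither passed. Their gap within arrays was 1.96 to 2.41 with mD1R and 1.55 to 1.63 with PBS, without overlap, which is a difference in change of 0.56 (exact permutation p = 0.1, the smallest possible). Of the 11 pairs of probe sets of the same gene among the members, 4 had gaps that did not overlap, and none can pass with 3 arrays a group. Some of these pairs share a probe set. The matching share over all genes on the array was not counted, so the count is not read as a trait of this family.

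Notch2 is the receptor needed for marginal zone B cells and is widely made in myeloid cells. Its bright probe set, 1455556_at, read 11.41, 11.98 and 11.95 in mD1R replicates 1, 2 and 3 and 11.83, 12.01 and 12.15 in PBS replicates 1, 2 and 3. The groups overlapped, and the change was -0.21 ± 0.21 (SE; 95% interval -0.69 to 0.26; adjusted p = 0.532). The other Notch2 probe set, 1451889_at, read 1.38, 2.99 and 4.24 with mD1R and 5.72, 5.64 and 5.02 with PBS. Every mD1R array lay below every PBS array, and the mD1R arrays spread widely (mean 2.87 ± 1.43 with mD1R, 5.46 ± 0.38 with PBS; SD, n = 3 each).

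Because its mean lay below the filter, 1451889_at was tested only in the fit with no filter. There its change was -2.59 ± 0.82 (SE; 95% interval -4.46 to -0.72), with an unadjusted p of 0.0122 and an adjusted p of 0.106 in limma, so it did not pass. It was the only one of the 7 dim members with an unadjusted p under 0.05. The change was -3.54 within spike-in set 1 and -1.09 within set 2. In that fit 2 of the 18 members passed, both of Jag1, against 6.39% of all probe sets.

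Notch3, best known from the smooth muscle of arteries, was dim. Its probe set 1421965_s_at, whose suffix marks probes that may match more than 1 transcript, read 5.77, 7.13 and 6.23 with mD1R and 6.39, 5.76 and 5.95 with PBS, in replicates 1, 2 and 3. Its change of 0.34 ± 0.43 did not pass (95% interval -0.64 to 1.33; adjusted p = 0.635), and it turned to -0.03 without mD1R replicate 2. The other, 1421964_at, read 4.53, 5.22 and 4.95 with mD1R and 4.83, 4.50 and 4.69 with PBS, all near or below the filter.

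Notch4, best known from endothelium, had 3 dim probe sets. The tested 1449146_at read 4.73, 6.64 and 5.07 with mD1R and 5.77, 5.55 and 5.55 with PBS, in replicates 1, 2 and 3. Its mD1R arrays spread on both sides of the PBS arrays, and its change of -0.14 ± 0.54 did not pass (95% interval -1.39 to 1.11; adjusted p = 0.891). Below the filter, 1436901_at read 4.32, 5.37 and 5.98 with mD1R and 5.26, 5.01 and 5.07 with PBS. The last of them, 1456263_at, read 5.18, 4.93 and 5.35 with mD1R and 5.74, 4.02 and 3.90 with PBS. In both of these the groups overlapped and the change differed in sign between the spike-in sets.

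Among the ligands other than Jag1, Jag2 is its closest relative and is known from limb and craniofacial development. Probe set 1426430_at read 6.54, 7.14 and 6.51 in mD1R replicates 1, 2 and 3 and 7.16, 5.33 and 6.50 in PBS replicates 1, 2 and 3. Probe set 1426431_at read 4.35, 6.23 and 5.73 with mD1R and 5.89, 5.84 and 5.99 with PBS. Both overlapped between groups, and in each a single low array (PBS replicate 2 in the first, mD1R replicate 1 in the second) lay apart from the rest of its group. Their changes were 0.40 ± 0.49 (95% interval -0.73 to 1.52; adjusted p = 0.63) and -0.47 ± 0.52 (95% interval -1.66 to 0.72; adjusted p = 0.588), opposite in sign, and neither passed. The intervals allow changes of over 1 on the log2 scale, so these data do not show that Jag2 was level.

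Dll1, the ligand from which mD1R is derived, had the probe set 1419204_at with 6.37, 5.74 and 5.51 in mD1R replicates 1, 2 and 3 and 6.18, 4.93 and 6.20 in PBS replicates 1, 2 and 3. The groups overlapped and the change was 0.10 ± 0.47 (95% interval -0.99 to 1.19; adjusted p = 0.909), with -0.13 within spike-in set 1 and -0.052 within set 2.

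Dll3, a divergent family member known from somite formation, and Dll4, the ligand that drives T cell commitment in the thymus, lay below the filter. Dll3 (1449236_at) read 3.70, 5.62 and 3.49 with mD1R and 5.77, 5.00 and 5.25 with PBS, in replicates 1, 2 and 3. Dll4 read 3.49, 5.14 and 4.82 with mD1R and 5.71, 6.34 and 4.70 with PBS in 1421827_at. Its other probe set, 1421826_at, read 3.90, 3.38 and 3.36 with mD1R and 4.86, 3.48 and 2.24 with PBS. The groups overlapped in all 3 of these, and their adjusted p-values in the fit with no filter were 0.451, 0.414 and 0.994. No detection calls were used, so whether these transcripts were present at all cannot be read from these signals.

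Genes whose values over the 6 arrays were most like each member were found by the smallest root mean square difference between log2 signals centred on their means, among tested probe sets with 1 symbol. For Jag1 (1434070_at) they were Mrgpre (0.096), Pvr (0.12) and Cd300c2 (0.135), which had log2 changes of 2.0 to 2.07 with mD1R. Pvr encodes a nectin-like adhesion receptor and Cd300c2 a receptor of myeloid cells. Because most of the Jag1 signal is the step between the groups, this measure mainly finds genes with a rise of the same size. For Notch1 (1418634_at) the nearest was Zmat2 (0.037), and for Notch2 (1455556_at) Ccdc138 (0.035). For the other tested members the nearest were Olr1 for Notch3 (0.057), Gpr18 for Notch4 (0.124), Ajm1 for Jag2 (0.095) and Riiad1 for Dll1 (0.123).

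**Figure D3:**
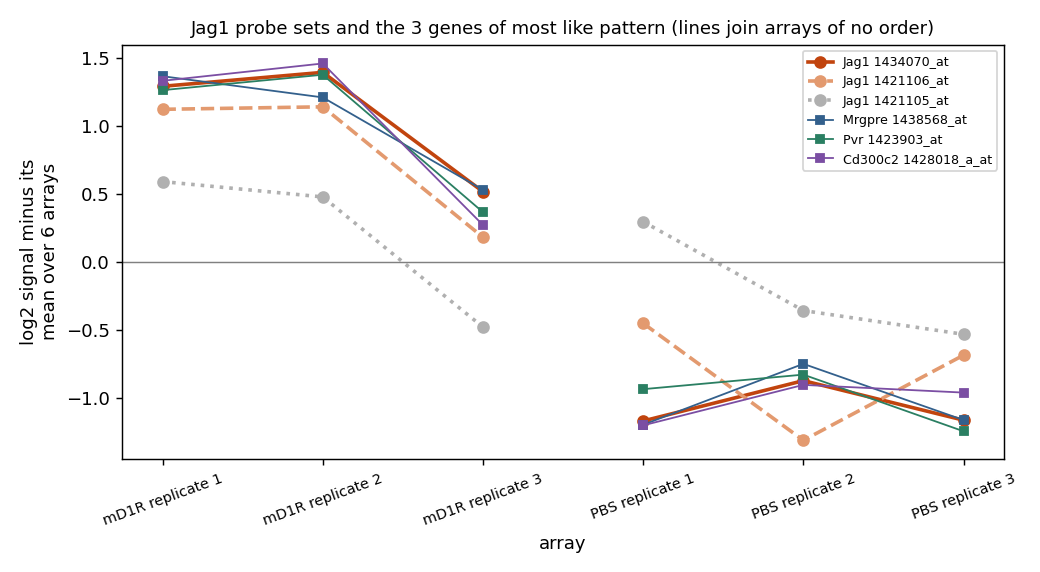
Log2 signal minus its mean over the 6 arrays (vertical axis) on each array (horizontal axis, mD1R left of PBS) for the 3 Jag1 probe sets (circles) and the 3 genes of most like pattern (squares). Lines join arrays of a group only to guide the eye, and mD1R replicate 3 is the lowest mD1R array in all 6 lines.

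The other genes of the pathway were taken from 6 lists, by the brightest tested probe set of each gene. Of 85 genes 66 could be tested, of which 9 passed as higher and 4 as lower with mD1R, against 8.49% and 7.09% of all 12320 genes. Their median log2 change was 0.11, beside 0.09 over all genes. The groups did not overlap in 29 of the 66, against 40.3% of all genes. Without PBS replicate 3 none of the 13 called genes passed in limma, although 12 of the 66 were higher and 7 lower at an unadjusted p of 0.05, against 15 and 9 with all arrays. Over all 27022 tested probe sets 5853 had such a p without PBS replicate 3 and 8048 with all arrays. Leaving out mD1R replicate 1, 2 or 3 kept 8, 2 or 12 of the 13, and leaving out PBS replicate 1 or 2 kept 5 or 2. With each of the 6 arrays left out in turn all 13 kept their sign.

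Of 8 tested genes for the proteases that cut Notch, 3 rose and 1 fell. Adam17, an ADAM sheddase able to cut Notch, read 12.29, 12.62 and 11.97 in mD1R replicates 1, 2 and 3 and 10.57, 11.13 and 11.08 in PBS replicates 1, 2 and 3. It rose by 1.36 ± 0.24 (adjusted p = 0.0149), and its 2 other tested probe sets rose by 0.96 and 1.17. Psen2, a catalytic subunit of gamma-secretase, rose by 1.30 ± 0.25 (adjusted p = 0.0188), with 0.15 in its other probe set, which did not pass. Furin, the convertase that cuts the receptor on its way to the surface, rose by 0.82 ± 0.21 (adjusted p = 0.0421). The Furin call was lost whichever array was left out (adjusted p = 0.0552 to 0.126), with arrays centred on their medians (0.0657), with no filter (0.0532) and with no variance trend (0.0773). Aph1b, another gamma-secretase subunit, fell by 1.47 ± 0.34 (adjusted p = 0.0318), with -1.03 in its other tested probe set, which did not pass. The Aph1b call was lost with no variance trend (0.0552). With each of the 6 arrays left out in turn, Adam17 kept its call in 3, Psen2 in 2 and Aph1b in 2. Adam10, the main sheddase of ligand-bound Notch, had a log2 change of 0.19 ± 0.18 and did not pass.

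None of 14 tested genes of the Rbpj complex and its corepressors passed in limma by its brightest probe set, while a dimmer probe set of the acetyltransferase gene Kat2b passed as lower (-1.97 ± 0.41, adjusted p = 0.0237). The smallest p was that of the corepressor gene Ctbp1 (-0.55 ± 0.16, adjusted p = 0.0599). Rbpj itself read 11.47, 12.81 and 11.72 with mD1R and 10.61, 11.26 and 11.14 with PBS, in replicates 1, 2 and 3, without overlap. Its log2 change of 0.999 ± 0.36 did not pass (limma adjusted p = 0.105), nor did those of its other tested probe sets (0.92 and 0.85). Of 7 glycosyltransferase genes 1 rose, Poglut1, which adds glucose to the EGF repeats of Notch (0.99 ± 0.18, adjusted p = 0.0176). Of 16 genes for ubiquitin ligases and endocytosis 1 rose, the Deltex family gene Dtx3 (1.19 ± 0.20, adjusted p = 0.0145). A dimmer probe set of Dtx4, of the same family, also passed as higher (0.93 ± 0.22, adjusted p = 0.0339), while its brightest did not (0.13 ± 0.19). Mib1, the ligase that ligand-sending cells need, had a change of 0.16 ± 0.16 and did not pass.

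Among 8 tested genes listed as other ligands and partners 2 rose. Ccn3, a secreted matrix protein that has been reported to bind Notch1, read 8.92, 7.40 and 5.26 with mD1R and 3.64, 3.86 and 3.88 with PBS, in replicates 1, 2 and 3. It rose by 3.40 ± 0.83 (adjusted p = 0.0356), with 4.51 within spike-in set 1 and 1.39 within set 2, but its PBS arrays were all below the filter line, so the size depends on dim values. With 16 added to the linear signals the change was 2.52 (adjusted p = 0.0475), and with 64 added it was 1.59 and did not pass (adjusted p = 0.0708). Jagn1 rose by 1.15 ± 0.30 (adjusted p = 0.044), but it encodes a protein of the endoplasmic reticulum that is named for jagunal and is not a Jagged ligand. Of 14 tested target genes 2 rose and 3 fell. Cdkn1a and Ifi204 rose by 1.65 ± 0.34 and 1.21 ± 0.26 (adjusted p = 0.0234 and 0.0263), while the lymphoid genes Cd7 and Cd3g and the helix-loop-helix inhibitor gene Id3 fell, with log2 changes of -3.88 ± 0.44, -1.80 ± 0.34 and -1.82 ± 0.42 (adjusted p = 0.00968, 0.0183 and 0.0312). Another tested Cdkn1a probe set also passed as higher, with a log2 change of 2.28. The Cd7 signals with mD1R, 3.48, 4.13 and 3.73, lay below the filter line. With 64 added to the linear signals the Cd7 change was -1.79 and still passed (limma adjusted p = 0.00807). Hes1, the most used Notch target, had a log2 change of 0.09 ± 0.24 and did not pass (adjusted p = 0.842).

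**Figure D4:**
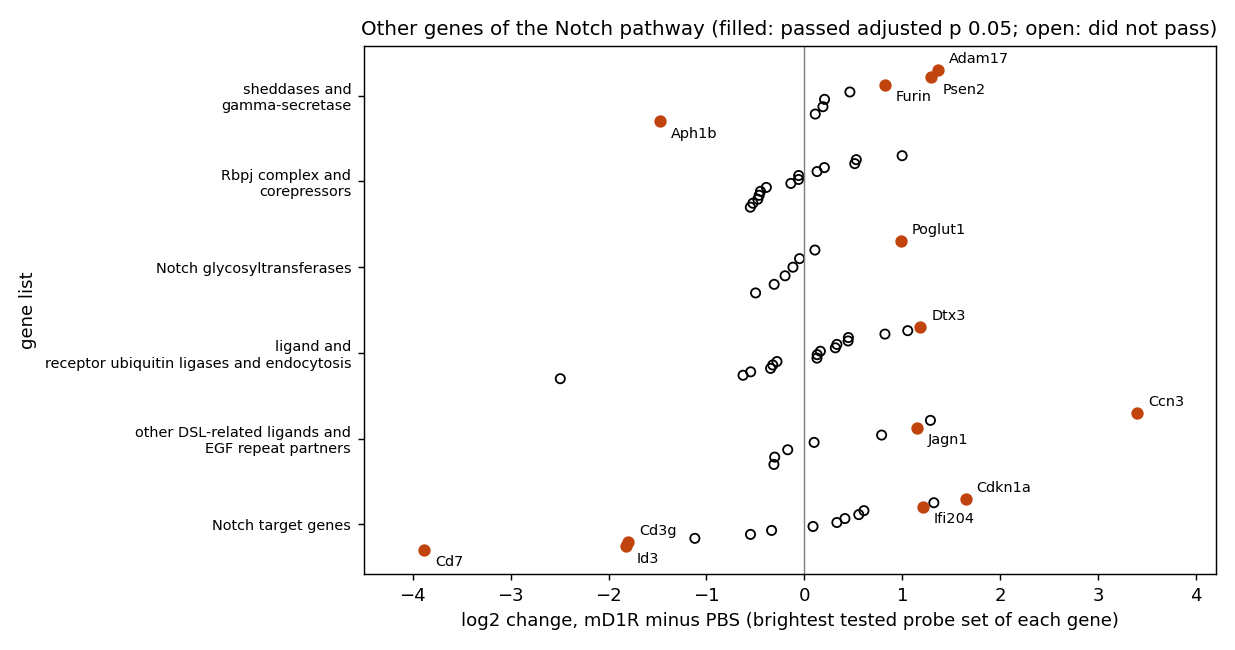
Log2 change, mD1R minus PBS (horizontal axis), of each tested gene in the 6 pathway lists (vertical axis), filled and named where it passed adjusted p 0.05 and open where it did not. The 9 genes that rose lie between 0.82 and 3.40 and the 4 that fell between -3.88 and -1.47, spread over 5 of the lists.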

How the data were processed

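The authors' deposited table holds log2 signals of 45037 probe sets and 64 controls on 6 arrays, and per the submitters' processing notes it was made with MAS5, for which no version is given. Per the values, each array had been scaled alone to a linear mean of 500 (trimmed by 2%), and 239 to 422 values per array were listed as 0. No further scaling was applied. Probe sets were named from the platform annotation, where 34945 had 1 symbol, 932 several and 9160 were not listed; Entrez IDs of 34741 matched RefSeq genes and 0 symbols changed. Groups came from sample titles. The comparison used limma 3.58.1 in R 4.3.3 (lmFit, eBayes with a variance trend, two-sided, no block), tested on simulated data, and exact permutation tests of within-array gaps used scipy 1.17.1. The members, the gene lists and the rule for named genes were chosen with earlier results of these data known. That rule took every member probe set, the called genes of each pathway list or its smallest p, and the 3 genes of most like pattern. The genes Adam10, Dtx4, Hes1, Kat2b, Rbpj and Mib1, and all genes named from the marker lists, were added after their values were seen. Some genes of the pathway lists were not analysed here. Alternatives covered scaling, pseudocounts, filters, variance models, weights, blocks, the threshold and leaving out each array. Deviations from the group means correlated at 0.31, 0.03 and 0.13 between same-numbered replicates, and at -0.22 to 0.15 between the others. The labels name no pairs, so the numbers were a block only in an alternative fit.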

Additional observations from a re-analysis of the deposited data

How the results depend on the processing

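Jag1 stayed higher with mD1R in all 18 alternatives, by 1.97 to 2.41 (log2) in 1434070_at, which passed in 17 of them, and by 1.24 to 1.94 in 1421106_at, which passed in 12. Besides the left-out arrays given above, 1421106_at did not pass at adjusted p 0.01, where 1 member probe set passed as higher. Leaving out 1 array at a time, 0 to 2 members passed as higher and 0 as lower, 0 to 9 pathway genes passed as higher and 0 to 5 as lower, and over all probe sets 0 to 2523 passed as higher and 0 to 3031 as lower, the 0 without PBS replicate 3, where 5853 probe sets, 2 members among them, had an unadjusted p under 0.05 in limma. Over all probe sets 1077 passed as higher and 1136 as lower with no variance trend, 3112 and 3396 with array weights, and 65 and 43 at adjusted p 0.01, against 1657 and 1756. Pathway genes higher were 5 with no variance trend and 0 at adjusted p 0.01 (15 at unadjusted p 0.05), against 9, and lower were 2 with the filter at the 60th percentile, 8 with array weights and 1 at adjusted p 0.01, against 4. Apart from changes within single spike-in sets, members that did not pass changed sign in 9 cases. Dll1 was -0.091 with the spike-in set as a block, -0.14 without mD1R replicate 1 and -0.32 without PBS replicate 2, in a left-out range up to 0.32. Jag2 was -0.10 in 1426430_at without PBS replicate 2 (range up to 0.81) and 0.072 in 1426431_at without mD1R replicate 1 (range down to -0.87). Notch3 (1421965_s_at) was -0.033 without mD1R replicate 2 (range up to 0.65). Notch4 (1449146_at) was 0.24 with array weights, 0.23 without mD1R replicate 1 and 0.066 without mD1R replicate 3 (range down to -0.72). The cause was not tested. With the replicate number as a block, 2 members passed as higher and 0 as lower, 2314 probe sets passed as higher and 2305 as lower, and 11 and 4 pathway genes, so no count moved by over 1.5 times, and mD1R replicate 2 did not correlate best with its own number. Dim signals, with no detection calls, limit what can be said of Notch3, Notch4, Dll3 and Dll4.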

Other observations

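Some neutrophil granule and B cell markers were lower with mD1R. Among all genes by their brightest probe set 8.49% passed as higher and 7.09% as lower. Of 10 neutrophil granule markers 2 passed as lower in limma and 0 as higher. Their summed signals are given above, and that of mD1R replicate 3 lay inside the range with PBS. Of 7 tested B cell markers 4 passed as lower and 0 as higher, with sums of 1756 to 2997 with mD1R and 5520 to 9270 with PBS. Of 8 tested T cell markers 1 passed as higher and 3 as lower, with sums of 1698 to 2289 with mD1R and 1327 to 1963 with PBS. The median change of these 8 was -0.91, and the sum ran the other way because Lat, which rose by 1.53, is the brightest of them with mD1R. Dendritic cell markers gave 1 higher and 2 lower of 8, with sums of 4549 to 29476 with mD1R and 8278 to 10183 with PBS. Flt3, among the lower, is also in the stem and progenitor list. Erythroid markers gave 0 higher and 1 lower of 4, with sums of 856 to 1945 with mD1R and 978 to 3121 with PBS. The part of these cell types in the member changes was not tested.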
